A study of Rattus norvegicus with 28 samples.

Results

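The genes described here are the chains of collagen VI, Col6a1 (ENSRNOG00000001249), Col6a2 (ENSRNOG00000001254), Col6a3 (ENSRNOG00000019648), Col6a5 (ENSRNOG00000010663) and Col6a6 (ENSRNOG00000023007), 5 of the 32883 genes counted. They were found in the count files by the Ensembl identifiers that a supplementary table of the study pairs with their symbols. That table lists genes by their P value in the study's own VDR-OE comparison, so being named is not independent of that comparison. Col6a4 had no paired identifier and was not analysed here.

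RNA-seq was carried out on 28 tibialis anterior muscles, both legs of 14 rats, in 4 groups of 7. In the VDR overexpression arm (rats 416 to 422) the right leg received, by in vivo electroporation of plasmid DNA into the muscle, the vector pCAGGS-mVDR with the mouse vitamin D receptor (VDR-OE), and the left leg the empty pCAGGS vector (VDR-OE control). In the knockdown arm (rats 423 to 429) the right leg received a short hairpin RNA against VDR (VDR-KD) and the left leg a scramble hairpin (VDR-KD control). For the VDR-OE study the methods give male Wistar rats that arrived at 8 weeks of age and muscles taken 10 days after electrotransfer. They name the vectors pCMV6-mVDR and empty pCMV6, where the sample labels name pCAGGS, and the labels were followed here. The strain, age and time of the knockdown arm were not given in the sources used here. Each rat carried its own control leg, electroporated as the treated leg was, and no group was left without electroporation. Electroporation reaches part of the fibres of a muscle, and each library is the whole muscle's RNA, so that in every value below fewer cells of a type and less RNA per cell cannot be told apart.

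Collagen VI is an extracellular matrix protein that forms beaded microfibrils next to the basement membrane of muscle fibres and other cells. Its unit is a trimer of an alpha-1, an alpha-2 and an alpha-3 chain (Col6a1, Col6a2, Col6a3), of which the alpha-3 chain is the longest and carries most of the von Willebrand factor A domains. The alpha-5 and alpha-6 chains (Col6a5, Col6a6) resemble alpha-3 and can take its place in the trimer. In skeletal muscle collagen VI is made mostly by interstitial fibroblasts, and mutations in the genes of its alpha-1, alpha-2 or alpha-3 chains cause the Bethlem and Ullrich muscle disorders. In the RefSeq annotation Col6a1 and Col6a2 lie side by side on chromosome 20, Col6a6 and Col6a5 side by side on chromosome 8, with 0 protein-coding genes between the members of either pair, and Col6a3 is on chromosome 9.

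The treated factor, VDR, binds DNA, with the retinoid X receptor as its partner, at paired short hexamers, and the chains moved by different amounts in the VDR-OE legs. Their start sites are therefore shown here. RefSeq (GRCr8) gave a promoter for 4 of the 5 chains, from 250 bases before to 50 bases after the start site, read 5′ to 3′ on the gene's strand. The counts were made on rat genome 6.0, so these GRCr8 positions are not those of the counted features. Capitals mark a VDR hexamer on either strand, by which is meant the sequence AGGTCA, its close relative AGTTCA, the variant form GGTTCA, or the variant form GGGTCA.
Col6a1, chr20:11905440-11905739, plus strand: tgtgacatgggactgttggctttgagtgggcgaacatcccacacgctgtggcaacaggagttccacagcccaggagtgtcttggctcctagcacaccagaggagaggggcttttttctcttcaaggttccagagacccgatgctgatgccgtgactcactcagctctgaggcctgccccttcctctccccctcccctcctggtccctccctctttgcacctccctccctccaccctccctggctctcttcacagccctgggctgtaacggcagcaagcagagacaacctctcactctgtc
Col6a3, chr9:98886909-98887208, minus strand: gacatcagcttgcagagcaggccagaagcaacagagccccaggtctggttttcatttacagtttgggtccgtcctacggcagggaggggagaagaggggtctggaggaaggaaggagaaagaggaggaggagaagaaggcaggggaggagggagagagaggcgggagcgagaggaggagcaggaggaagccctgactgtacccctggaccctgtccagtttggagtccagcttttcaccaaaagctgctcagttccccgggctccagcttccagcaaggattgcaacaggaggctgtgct
Col6a5, chr8:115462795-115463094, minus strand: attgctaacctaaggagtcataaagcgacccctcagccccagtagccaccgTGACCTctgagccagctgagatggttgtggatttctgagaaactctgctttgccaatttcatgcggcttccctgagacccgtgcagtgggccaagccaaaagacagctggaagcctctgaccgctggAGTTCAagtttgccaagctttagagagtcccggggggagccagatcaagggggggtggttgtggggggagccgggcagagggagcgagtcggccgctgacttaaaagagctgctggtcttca
Col6a6, chr8:115352112-115352411, minus strand: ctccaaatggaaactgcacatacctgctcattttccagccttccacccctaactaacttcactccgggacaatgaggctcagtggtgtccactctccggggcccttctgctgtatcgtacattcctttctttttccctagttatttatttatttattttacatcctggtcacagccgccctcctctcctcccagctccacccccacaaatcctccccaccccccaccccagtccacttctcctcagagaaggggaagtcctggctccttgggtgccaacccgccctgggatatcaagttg

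Of these 4 windows, the Col6a5 window held the VDR hexamers, TGACCT, the first hexamer read on the other strand, at position -199 and AGTTCA at position -72, and the Col6a1, Col6a3 and Col6a6 windows held none. They lay far apart and on opposite strands, so each was a single hexamer and no adjacent pair was present. For a second Col6a5 start site, not printed here, the same hexamers were at -205 and -78. A hexamer of this set was present in 44.4% of the 33469 rat promoters of the same length, so that a match is common. The GC box GGGCGG, found in 33.1% of promoters on either strand, was present in Col6a6 (positions -76 and 30), and CCAAT, found in 37.5%, in Col6a5 (position -147). TATAAA, found in 14.2%, was in none of the 4. The GC content of the windows was 59.7% for Col6a1, 58.7% for Col6a3, 57.3% for Col6a5 and 53.3% for Col6a6, beside a median of 51.7% over all promoters. No binding of VDR was measured in these samples.

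Libraries held 36684220 to 46312167 counted reads, of which 9841 to 108718 per muscle fell on the 5 chains together. Levels are given as CPM, reads scaled to library size after TMM normalisation, which corrects for differences in library composition. The target itself was checked first. Vdr ran from 1.91 CPM (median 3.93) to 6.73 CPM in the VDR-OE control legs and from 5.45 CPM (median 2298) to 5929 CPM in the VDR-OE legs. Of 7 rats, 6 had more Vdr in the VDR-OE leg. In rat 419 the library labelled VDR-OE had 5.45 CPM against 5.75 CPM in its control leg, so the tests and correlations that use this library are followed below by their values without rat 419. The relations with the Vdr level are the exception, given without rats 418 and 419 together. Vdr differed by 8.52 (SE 1.49) on the log2 scale (adjusted P = 0.0228, edgeR), and by 9.15 (SE 0.78, adjusted P = 0.0175) without rat 419. In the knockdown arm Vdr ran from 1.39 (median 3.41) to 8.12 CPM in the control legs and from 1.94 (median 2.59) to 6.53 CPM in the VDR-KD legs, and was lower in the VDR-KD leg of 4 of 7 rats. Its log2 difference there was -0.26 (SE 0.40, adjusted P = 0.839), so that a fall of the target was not detectable in the libraries labelled VDR-KD. Of the lists of cell markers, 0 of the 8 myofibre genes had an identifier paired with a symbol, so the tissue label was not checked against them.

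**Figure D1:**
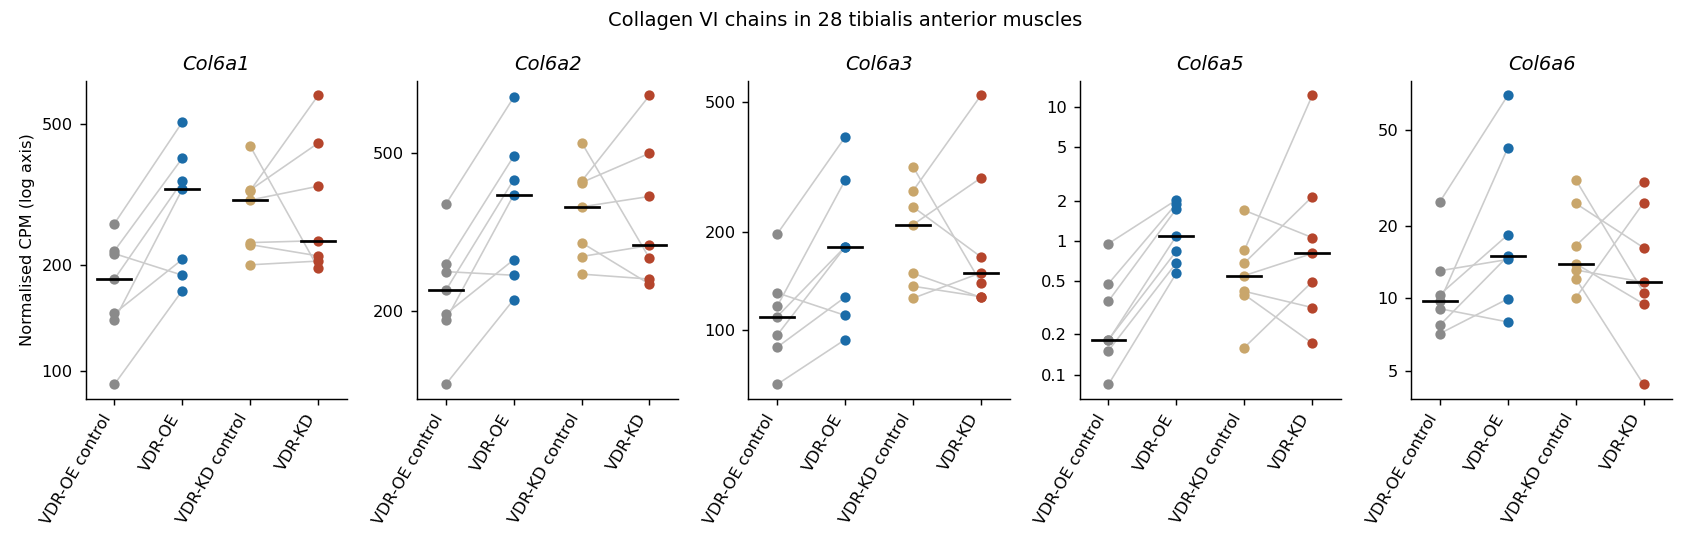
Level of each collagen VI chain in each of the 28 muscles, as normalised CPM on a log axis. Points are muscles, grey lines join the legs of 1 rat, and black bars mark the median of the 7 muscles of a group. The Col6a5 level is higher in the VDR-OE leg in 7 of 7 rats, the Col6a1, Col6a2, Col6a3 and Col6a6 levels in 6 of 7, and the groups overlap for every chain. The single VDR-KD leg at 12.19 CPM of Col6a5 is that of rat 426.

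In the VDR-OE legs the 3 chains of the standard trimer were each 1.68 to 1.7 times as high as in the control legs on group means, and the rare alpha-5 chain 3.70 times. Col6a1, Col6a2, Col6a3 and Col6a5 passed the test and Col6a6 did not. The test was edgeR's quasi-likelihood test with the rat as a block, with Benjamini-Hochberg adjustment over 14526 genes. Of these, 1037 (7.14%) passed an adjusted P of 0.05, with 593 (4.08%) higher and 444 (3.06%) lower. Since the chains were named from a table ordered on the same comparison, nothing is read from 4 of 5 chains beside 7.14%.

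Col6a1, the alpha-1 chain, ran from 91.8 (median 182) to 260.9 CPM in the control legs and from 169 (median 326) to 504.5 CPM in the VDR-OE legs. The groups overlapped, with 4 of the 7 VDR-OE legs above every control leg. Within rats, the VDR-OE leg was higher in 6 of 7, with log2 ratios from 0.51 in rat 417 to 1.23 in rat 421 among them and -0.20 in rat 416. The fitted log2 change was 0.75 (SE 0.16, 95% interval 0.39 to 1.10, adjusted P = 0.0332).

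Col6a2, the alpha-2 chain, whose gene neighbours Col6a1, ran from 130.2 (median 225) to 371 CPM in the control legs and from 213 (median 391) to 690 CPM in the VDR-OE legs. Again 4 of 7 VDR-OE legs lay above every control leg, and 6 of 7 rats were higher in the VDR-OE leg. Rat 416 had a log2 ratio of -0.03 and rat 421, the highest, 1.05. The fitted log2 change was 0.71 (SE 0.13, adjusted P = 0.0269), close in size to that of Col6a1.

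Col6a3, the alpha-3 chain, from whose end the fragment endotrophin is cleaved, ran from 67.9 (median 110) to 197 CPM in the control legs and from 93.2 (median 179) to 389.8 CPM in the VDR-OE legs. The overlap was wider, with 2 of 7 VDR-OE legs above every control leg, and 6 of 7 rats were higher in the VDR-OE leg. The fitted log2 change was 0.67 (SE 0.16, adjusted P = 0.0442), nearest to the threshold of the 4 chains called. The identifier of Col6a3 is annotated as a processed transcript in the gene set counted, and whether its reads cover the whole coding gene was not checked.

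In rats 417 to 422 all of these 3 chains were higher in the VDR-OE leg by at least 0.45 on the log2 scale, and rat 416 was the exception for all 3. Rat 419, whose library labelled VDR-OE had no raised Vdr, was among the rats with a rise. Its log2 ratios were 0.95 for Col6a1, 0.90 for Col6a2 and 0.99 for Col6a3, and that library had the highest level of each in its group. In rat 416 the log2 ratio was -0.20 for Col6a1, -0.03 for Col6a2 and -0.23 for Col6a3, although its VDR-OE leg had 1986 CPM of Vdr against 1.91 CPM in the control leg. Without rat 416 the log2 changes were 0.90, 0.83 and 0.82 with adjusted P from 0.00269 to 0.00471, 5 of 5 chains passed, and 4768 genes passed in all.

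Col6a5, the alpha-5 chain, was a rare transcript. Its reads numbered 3 to 42 per control leg and 25 to 94 per VDR-OE leg. Its level ran from 0.0845 (median 0.182) to 0.953 CPM in the control legs and from 0.574 (median 1.09) to 2.02 CPM in the VDR-OE legs. The control leg of rat 420 was the only control leg that reached the range of the VDR-OE legs. All 7 rats, rat 416 included, were higher in the VDR-OE leg, with log2 ratios from 1.08 in rat 420 to 2.60 in rat 421. The fitted log2 change was 2.06 (SE 0.23, 95% interval 1.55 to 2.56, adjusted P = 0.0128, edgeR), the 8th smallest P of the 14526 genes. Its control median lay under the filter on low counts (0.239 CPM) and all its VDR-OE legs above it. Col6a5 thus entered the test through the VDR-OE legs, and nothing is read from this rank.

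Col6a6, the alpha-6 chain, ran from 7.12 (median 9.68) to 25.1 CPM in the control legs and from 7.96 (median 14.9) to 69.3 CPM in the VDR-OE legs. The 2 VDR-OE legs above every control leg were those of rats 418 (42.0 CPM) and 419 (69.3 CPM), whose Vdr levels were the lowest of the VDR-OE legs. Within rats, 6 of 7 were higher in the VDR-OE leg, from 0.16 in rat 417 to 2.12 in rat 418, and rat 422 had -0.18. The fitted log2 change was 0.84 (SE 0.25, 95% interval 0.27 to 1.41) and did not pass (adjusted P = 0.0694).

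These calls rested on the set of rats. Without rat 419, whose library labelled VDR-OE had no raised Vdr, the log2 changes of the 5 chains in order were 0.71, 0.68, 0.62, 2.07 and 0.73, and Col6a5 (adjusted P = 0.0439) was the only chain that passed. Without rats 417, 420 or 422 in turn Col6a5 was again the only chain called. Without rat 418 or 421 no chain was called, with Col6a5 at adjusted P of 0.0629 and 0.0597 (edgeR quasi-likelihood test). Calls over all genes fell as well, from 1037 to 149, 209, 4 and 416 without rats 417, 419, 420 and 422. Without rats 418 and 421 they were 1 and 0, so the loss of calls was not particular to the chains. Without the rat as a block Col6a5 alone of the chains passed, beside 887 genes in all. The direction was upward for all 5 chains under every alternative tried for this comparison.

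**Figure D2:**
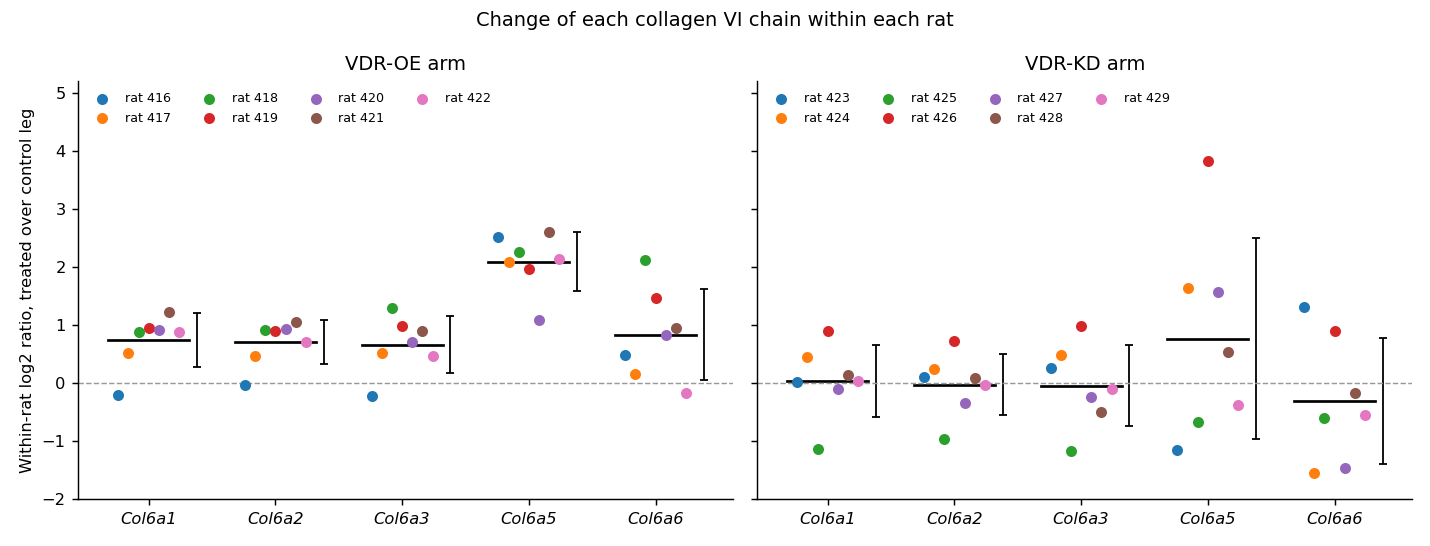
Within-rat log2 ratio of the treated over the control leg for each chain, in the VDR-OE arm (left) and the VDR-KD arm (right). Points are rats, coloured by rat, black bars are means and error bars the SD of 7 rats. In the VDR-OE arm all Col6a5 points lie between 1.08 and 2.60; in the VDR-KD arm the points of every chain lie on both sides of 0, and rat 426 has 3.83 for Col6a5.

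The knockdown arm showed no change that passed in any chain. Of 14652 genes tested, 0 (0%) passed with edgeR's quasi-likelihood test, also 0 with the likelihood ratio test and 0 with DESeq2, and 395 had an unadjusted P under 0.05. The log2 changes were 0.05 (SE 0.22) for Col6a1, -0.02 (SE 0.20) for Col6a2, -0.04 (SE 0.25) for Col6a3, 0.79 (SE 0.61) for Col6a5 and -0.31 (SE 0.36) for Col6a6, with adjusted P from 0.803 to 0.973. For Col6a2 the 95% interval ran from -0.47 to 0.43, the narrowest of the 5 chains. For Col6a5 it ran from -0.60 to 2.18 and for Col6a6 from -1.14 to 0.52. Changes inside these intervals remained compatible with the data. Group means of the first 3 chains were 292 and 317 CPM for Col6a1, 365 and 374 CPM for Col6a2 and 206 and 218 CPM for Col6a3 in the control and VDR-KD legs.

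Rats of the knockdown arm differed more from each other than the arm did from 0. Rat 425 had the lowest log2 ratios of the 3 trimer chains (-1.14, -0.97 and -1.18) and rat 426 the highest (0.89, 0.72 and 0.97). Vdr moved down in rat 425 (8.12 to 2.93 CPM) and up in rat 426 (1.39 to 4.27 CPM). Other rats went the opposite way. In rat 424 the log2 ratio of Vdr was -1.66 and those of the 3 trimer chains 0.44, 0.25 and 0.48. In rat 427 that of Vdr was 0.46 and those of the 3 chains -0.11, -0.35 and -0.25. A relation of the chains to Vdr in this arm was not tested. The VDR-KD leg of rat 426 also held 711 reads of Col6a5, or 12.19 CPM, where the other 6 VDR-KD legs had 0.172 to 2.13 CPM. Without rat 426 the log2 change of Col6a5 was 0.28 (adjusted P = 0.993) and that of Col6a1 -0.10.

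The leg effect in the VDR-OE arm minus that in the VDR-KD arm was tested directly over all 28 muscles. The difference was 0.70 (SE 0.28) for Col6a1, 0.73 (SE 0.24) for Col6a2, 0.71 (SE 0.30) for Col6a3, 1.26 (SE 0.67) for Col6a5 and 1.15 (SE 0.48) for Col6a6 on the log2 scale. None passed (adjusted P from 0.522 to 0.750), as none of 15112 genes did (0%); 1099 had an unadjusted P under 0.05, and the likelihood ratio test and DESeq2 called 18 and 44 genes, none of them a chain. Without rat 419 the differences were 0.66, 0.70, 0.65, 1.29 and 1.03 in the same order, and none passed (adjusted P from 0.592 to 0.790). With all 28 muscles Vdr itself did not pass this test (8.80, SE 1.46, adjusted P = 0.218), so not passing says little about the chains. The 95% intervals lay above 0 for Col6a1 (0.10 to 1.29), Col6a2 (0.22 to 1.24), Col6a3 (0.059 to 1.36) and Col6a6 (0.13 to 2.16). That of Col6a5 (-0.17 to 2.70) included 0. A difference between the arms in the change of the chains was not shown after adjustment, and it was not excluded.

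The control legs of the arms were also compared, empty vector against scramble hairpin. All 5 chains were lower in the VDR-OE control legs than in the VDR-KD control legs, by values that did not pass the test. The log2 differences were -0.71 (SE 0.22) for Col6a1, -0.66 (SE 0.22) for Col6a2, -0.84 (SE 0.25) for Col6a3, -0.99 (SE 0.54) for Col6a5 and -0.57 (SE 0.31) for Col6a6, with adjusted P from 0.106 to 0.278. With 1 control leg left out in turn no chain passed, but single legs moved the rarer chains: Col6a5 was -1.53 without rat 420 and -0.56 without rat 425, and Col6a6 was -0.87 without rat 419 and -0.36 without rat 424. Of 14458 genes 4 passed (0.0277%), and 3364 had an unadjusted P under 0.05. The calls depended on the tool, since DESeq2 called Col6a1, Col6a2 and Col6a3 (adjusted P = 0.0373, 0.0470 and 0.0262) and the likelihood ratio test called Col6a3 (0.0429). Different rats and different vectors separate these legs, and their parts cannot be told apart.

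The same VDR-OE control legs enter the comparison with the VDR-OE legs, so the values are given side by side. Mean Col6a1 was 179 ± 57.5 CPM (SD, n = 7) in the VDR-OE control, 305 ± 124 in the VDR-OE, 292 ± 79.7 in the VDR-KD control and 317 ± 153 in the VDR-KD legs. The VDR-OE control group had the lowest mean of the 4 for each of Col6a1, Col6a2, Col6a3, Col6a5 and Col6a6. The mean of the VDR-KD control legs divided by that of the VDR-OE legs was 0.956 for Col6a1, 0.939 for Col6a2 and 1.06 for Col6a3. For the rarer chains it was further from 1, with 0.537 for Col6a5 and 0.685 for Col6a6. The ranges of these groups overlapped.

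**Figure D3:**
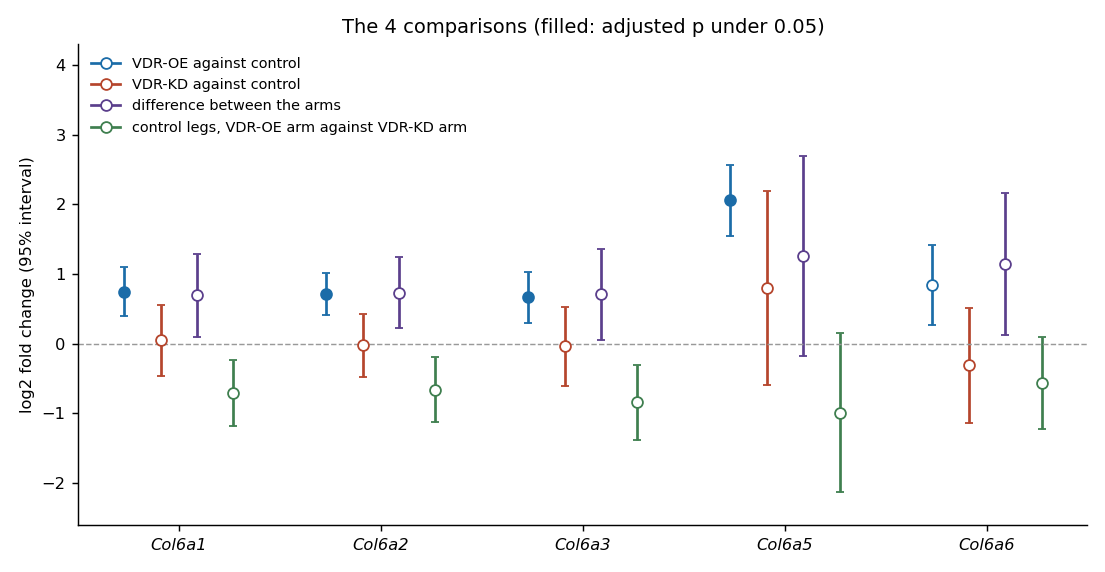
Fitted log2 fold change of each chain with its 95% interval in the 4 comparisons (edgeR quasi-likelihood test). Filled points passed an adjusted P of 0.05. Filled points are those of Col6a1, Col6a2, Col6a3 and Col6a5 for VDR-OE against control, between 0.67 and 2.06; the control legs of the VDR-OE arm lie below those of the VDR-KD arm for all 5 chains, between -0.99 and -0.57, and none of those passed.

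The make-up of the collagen VI reads was then followed as the share of each chain in the summed reads of the 5, which does not depend on library size. No transcript lengths were used, so shares are of reads and not of molecules, and chains are compared across legs and not with each other. In the VDR-OE control legs Col6a2 held 43.2 ± 0.857%, Col6a1 33.2 ± 2.21%, Col6a3 21.4 ± 1.40%, Col6a6 2.20 ± 0.751% and Col6a5 0.0628 ± 0.0543% (SD, n = 7). In the VDR-OE legs they held 43.0 ± 1.53%, 33.8 ± 1.82%, 20.7 ± 2.04%, 2.42 ± 1.01% and 0.144 ± 0.0521%. The 95% interval for the change in share was -1.98 to 1.56 percentage points for Col6a2, -1.89 to 3.07 for Col6a1 and -3.09 to 1.73 for Col6a3, and single rats lay between -3.45 and 4.21, so that shifts of this size in the main chains could not be told from the spread between rats.

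Col6a5 took a larger share in the VDR-OE leg of 7 of 7 rats, by 0.0812 percentage points (95% interval 0.0380 to 0.124, exact permutation test, 2-sided, P = 0.0156, the smallest that 7 pairs allow). Adjusted over the 5 chains this was 0.0781 and did not pass. With 7 pairs 1 chain alone could not pass this adjustment, so not passing says nothing about Col6a5. The other 4 chains had a larger share in the VDR-OE leg in 3 or 4 of the 7 rats (adjusted P = 0.766 each, exact permutation test). Without rat 419 the change in share was 0.0850 percentage points for Col6a5, 0.700 for Col6a1, 0.0489 for Col6a2, -0.879 for Col6a3 and 0.0455 for Col6a6. None passed, but with 6 rats the smallest P of this test is 0.0312, and again 1 chain alone could not pass. In the VDR-KD arm no share passed either, with adjusted P from 0.547 to 0.797 (exact permutation test), and Col6a5 held 0.0708 ± 0.0317% in the control and 0.179 ± 0.217% in the VDR-KD legs, where rat 426 alone had 0.654%.

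**Figure D4:**
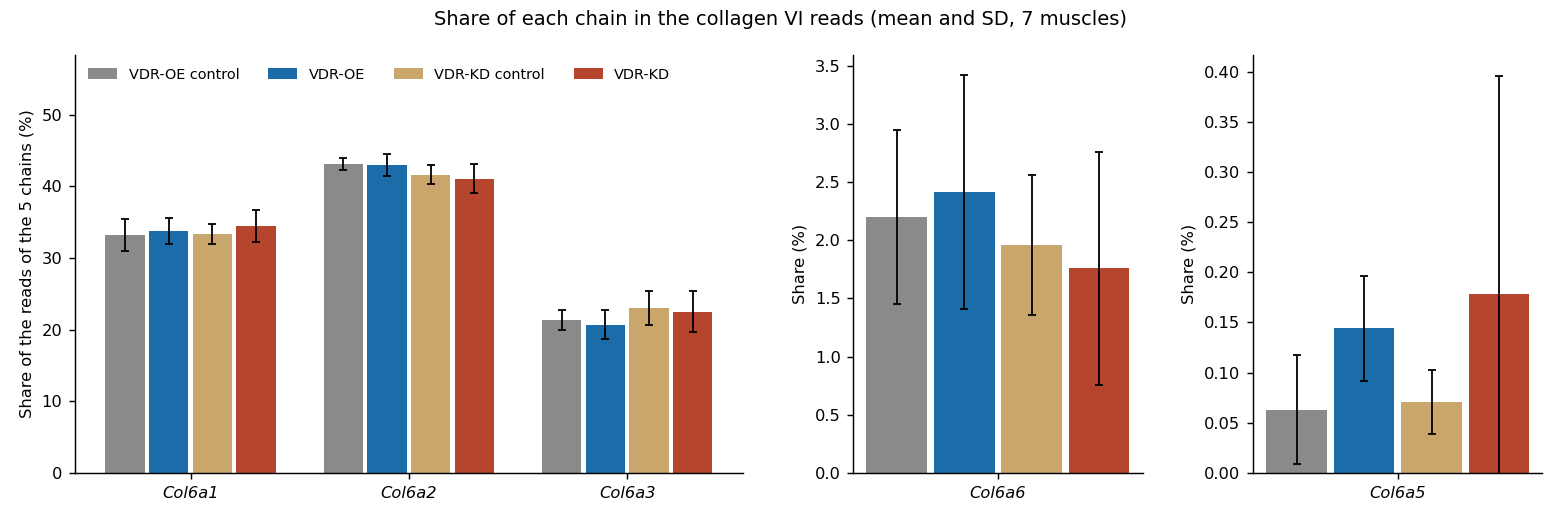
Share of each chain in the summed reads of the 5 chains, as group mean with SD (7 muscles per group), in percent, with separate axes from 0 for the main chains, Col6a6 and Col6a5. Col6a2 stays between 41.1% and 43.2% in all 4 groups, and Col6a5 is at 0.0628% in the VDR-OE control and 0.144% in the VDR-OE legs.

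Chains were also set against each other within each rat, as the difference of their log2 ratios, over 10 pairs of chains per arm. In the VDR-OE arm Col6a5 rose more than Col6a1 by 1.35 (95% interval 0.65 to 2.06 in size), more than Col6a2 by 1.39, more than Col6a3 by 1.43 and more than Col6a6 by 1.26. Each of these held in 7 of 7 rats (adjusted P = 0.0391 over 10 pairs, exact permutation test, 2-sided). These pairs all share the Col6a5 ratio, and a single pair alone could not pass this adjustment. Col6a5 was named through a table ordered on this comparison, so the adjusted P is not independent evidence. With a prior count of 2 the ratios of Col6a1, Col6a2 and Col6a3 minus that of Col6a5 were -1.185, -1.218 and -1.261. Col6a5 minus Col6a6 was then 1.093. With 6 rats the smallest P is 0.0312 and an adjusted P under 0.05 could not be reached for these pairs. Without rat 419 the ratios of Col6a1, Col6a2 and Col6a3 minus that of Col6a5 were -1.41, -1.44 and -1.505, and Col6a5 minus Col6a6 was 1.39 (adjusted P = 0.0781 each, exact permutation test).

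The other 6 pairs did not pass. Col6a1 and Col6a2 differed by 0.03 on the log2 scale with a 95% interval of -0.08 to 0.15, the narrowest of the pairs, and Col6a1 and Col6a6 by -0.09 with -0.81 to 0.62, the widest of the 6. In the VDR-KD arm none of the 10 pairs passed (adjusted P from 0.469 to 0.891, exact permutation test).

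Over the 28 muscles the trimer chains kept close step. The read ratio of Col6a2 to Col6a1 was 1.26 ± 0.0860 and stayed between 1.10 and 1.42, and that of Col6a3 to Col6a1 was 0.654 ± 0.0956. Log2 CPM of Col6a1 correlated with Col6a2 at r = 0.988 and with Col6a3 at 0.958 (28 muscles), while Col6a5 correlated with Col6a1 at 0.752 and with Col6a6 at 0.493. Over the 14 within-rat ratios r was 0.981 for Col6a1 with Col6a2, 0.921 for Col6a1 with Col6a3 and 0.229 for Col6a5 with Col6a6, the neighbouring pair on chromosome 8. Without rat 419 these were 0.980, 0.916 and 0.206 over 13 rats, and 0.991, 0.955, 0.742 and 0.485 over 26 muscles for the levels in the order given. These are descriptions, since chains of 1 muscle share library, scaling and treatment, and Col6a5 rests on few reads.

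**Figure D5:**
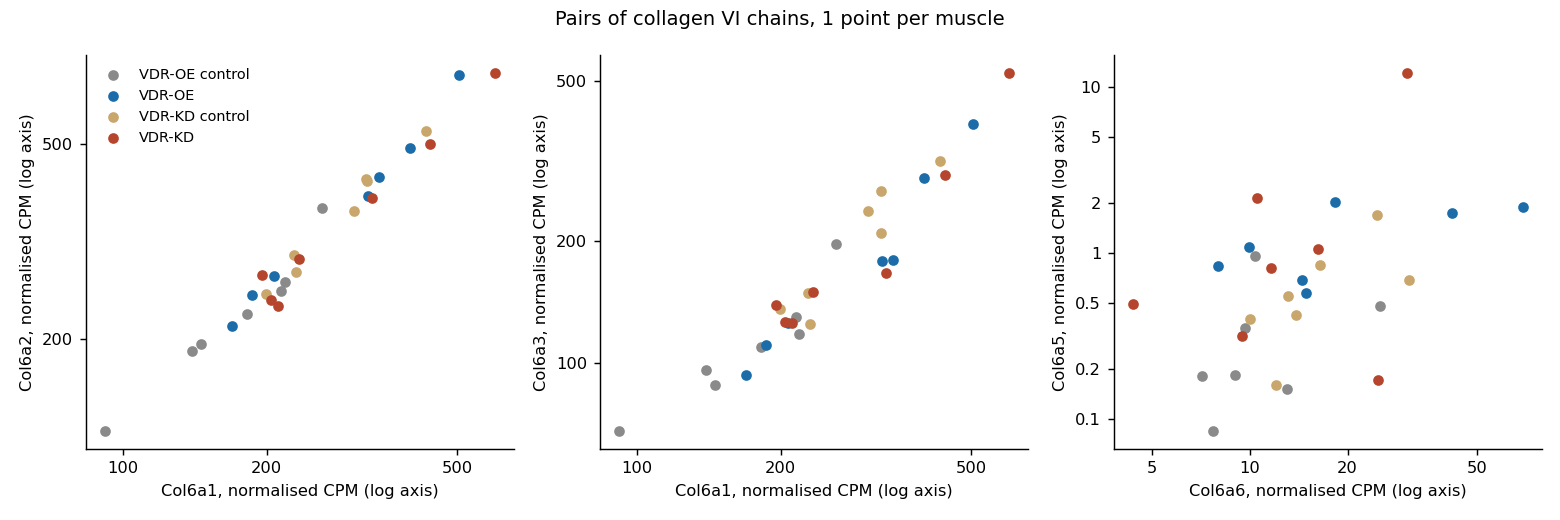
Normalised CPM of pairs of chains on log axes, 1 point per muscle, coloured by group. Col6a2 and Col6a3 follow Col6a1 closely (r = 0.988 and 0.958 over 28 muscles), whereas Col6a5 scatters widely against Col6a6 (r = 0.493).

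Whether a rat with more Vdr in its VDR-OE leg had a larger rise was looked at in 5 relations over the 7 rats. Col6a6 had Pearson r = -0.706 (exact permutation P = 0.108, adjusted 0.53) and Spearman rho = -0.821 (exact permutation P = 0.0341, adjusted 0.17) with the Vdr level. For Col6a5 r was 0.0619 and rho 0.107, for Col6a1 r was -0.201 and rho -0.0714, for Col6a2 r was -0.288 and rho -0.107, and for Col6a3 r was -0.500 and rho -0.571. None passed after adjustment over the 5 chains (exact permutation, adjusted P from 0.17 to 0.906). Without rats 418 and 419, the farthest from the median Vdr level, r was 0.373 for Col6a1, 0.236 for Col6a2, 0.250 for Col6a3, 0.0722 for Col6a5 and -0.795 for Col6a6, so that the sign for the 3 trimer chains rested on those rats. Values without rat 419 alone were not computed, nor were rho and P without both rats.

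Of a list of 53 genes that process, bind, receive or cut collagen VI, 25 had an identifier paired with a symbol, and the rest were not analysed here. In the VDR-OE arm 22 of these 25 passed upward and 0 downward, where 4.08% of all genes passed upward and 3.06% downward. The pairing of names comes from the table ordered on that comparison, so neither this count nor those of the groups below are independent evidence of direction, and nothing is read from them beside 4.08%. They also depended on the rats. Without rat 419, 7 of 25 passed upward, without the replicate block 8, without rat 417 also 7, and without rat 418, 420 or 421 none. Over all genes, 103 passed upward without rat 419, 409 without the block and 83 without rat 417. Without rats 418, 420 and 421 these were 1, 1 and 0. The median log2 change of the 25 lay between 0.63 and 0.71 in each fit that left out 1 rat. Among the enzymes and chaperones that process collagen chains 3 of 3 rose. P3h3, a prolyl 3-hydroxylase family member, changed by 0.66 (SE 0.08), Ppib, the prolyl isomerase cyclophilin B, by 0.53 (SE 0.09) and P3h1 by 0.32 (SE 0.07) on the log2 scale (adjusted P = 0.0159, 0.0200 and 0.0324).

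Among the matrix ligands, named through the same table, 13 of 13 had a log2 change above 0, with a median of 0.78. Of the 13, 12 passed upward, and 4 did without rat 419. Vwa1, a basement membrane protein that binds perlecan, rose by 0.61 (adjusted P = 0.0148), Fn1, fibronectin, by 0.93 (0.0200) and Matn2, matrilin-2, by 0.94 (0.0218). Vwa1 lay between 13.2 and 18.1 CPM in the control and between 22.1 and 27.5 CPM in the VDR-OE legs, higher in 7 of 7 rats. Nid2, nidogen-2, with 0.39 (adjusted P = 0.0918), did not pass.

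Of the receptors, the anthrax toxin receptors Antxr1 and Antxr2, which bind collagen VI, rose by 0.69 and 0.59 (adjusted P = 0.0220 and 0.0291), as did the collagen receptor kinase Ddr2 by 0.56 (0.0428). The integrin subunits Itga2 (0.91, adjusted P = 0.0599) and Itga11 (0.42, 0.0730) did not pass. The proteases rose in 4 of 4, among them Bmp1, the procollagen C-proteinase, by 0.51 (adjusted P = 0.0185), Mmp2, a gelatinase, by 0.77 (0.0212) and Mmp14, a membrane-bound metalloproteinase, by 0.67 (0.0236). Without rat 419, P3h3, Ppib, Vwa1, Fn1, Matn2, Col1a1 and Bmp1 were the partners that passed, and none of the 5 receptors did. In the VDR-KD arm and between the control legs 0 of 25 passed with the same test, and all 25 had lower fitted levels in the VDR-OE control than in the VDR-KD control legs.

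Markers of the cells that make matrix moved in the same comparison. Of 9 fibroblast and fibro-adipogenic markers 5 were named, through the table ordered on this comparison. All 5 had a log2 change above 0 in the VDR-OE legs, and 4 passed upward (4.08% of all genes did). By edgeR's quasi-likelihood test Pdgfra changed by 0.99 (SE 0.17, adjusted P = 0.0220) and Dpt by 0.70 (SE 0.10, adjusted P = 0.0173). Fap (0.69) had an adjusted P of 0.0511. The summed level of the 5 ran from 257 to 442 CPM in the VDR-OE control and 338 to 780 CPM in the VDR-OE legs. It ran from 346 to 661 CPM in the VDR-KD control and 381 to 799 CPM in the VDR-KD legs. Of 7 macrophage and leukocyte markers 3 were named, through the same table. All 3, Mrc1 (1.43), Cd163 (1.42) and Csf1r (1.14), rose (adjusted P = 0.0282, 0.0428 and 0.0408, edgeR), where 4.08% of all genes passed upward. Their summed level was 33.5 to 100.3 CPM in the VDR-OE control and 78.1 to 208 CPM in the VDR-OE legs. In the other arm it was 79.8 to 293.5 CPM in the VDR-KD control and 83.7 to 453 CPM in the VDR-KD legs. Pdgfrb, 1 of 5 pericyte and smooth muscle markers, rose by 0.35 (adjusted P = 0.0382), and none of the endothelial, tenocyte, Schwann or satellite cell markers was named. Without rat 419, 2 of the 5 fibroblast markers (Pdgfra and Dpt) and 2 of the 3 macrophage markers (Mrc1 and Cd163) passed, where 103 of all genes (0.716%) passed upward. Without rat 418, 420 or 421 none of either list did, where 1, 4 and 0 of all genes passed. The part of these cells in the change of the chains was not tested.

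Among the 1719 named genes with a mean of at least 1 CPM, the level most like the mean of Col6a1, Col6a2 and Col6a3 over the 28 muscles was that of Col5a2, a collagen V chain (r = 0.983), followed by Igsf10 (0.977), Thbs3, thrombospondin-3 (0.974), Cthrc1 (0.962) and Fbn1, fibrillin-1 (0.961). These were also the first 5 of all 12826 genes, named or not. By the within-rat ratios of 14 rats the most alike were Fstl1 (0.973), Igsf10 (0.967), Col5a2 (0.963), Fam114a1l1 (0.960) and Thbs3 (0.959). For Col6a5 they were Plekhg3 (0.839), Emilin1 (0.836) and Slc38a10 (0.829), and for Col6a6 they were Kcp (0.907), Maged2 (0.906) and Nid1 (0.894), all from lower correlations than those of the trimer chains. Without rat 419 the correlations of the genes named here ran from 0.962 to 0.980 and from 0.955 to 0.972 for the trimer chains by level and by ratio, from 0.828 to 0.834 for Col6a5 and from 0.855 to 0.897 for Col6a6.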

How the data were processed

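Each sample's deposited file held raw counts per Ensembl gene, made by the authors with Rsubread from trimmed 75 base paired reads aligned to rat genome 6.0 with Ensembl release 89; the submitters' processing notes also name bcl2fastq 2.17.1.14, FastQC 0.11.5 and edgeR 3.18.1. Whether counting used strand is not given in the sources used here. Genes with over 10 reads' worth of CPM (0.239 CPM in the VDR-OE arm, 0.251 CPM in the VDR-KD arm) in at least 7 samples were kept, and TMM factors ran from 0.736 to 1.44. Each arm was fitted with edgeR 4.0.16 (glmQLFit, glmQLFTest; R 4.3.3) with the rat as a block. The study's methods name edgeR's glmFit with the pairing in the design and no test, so the likelihood ratio test that goes with glmFit was run as an alternative; the quasi-likelihood form also allows for the uncertainty of each gene's dispersion. DESeq2 1.42.0 was another alternative. Shares and pairs of chains were tested by exact permutation over 128 swaps of the legs of 7 rats. Levels are TMM-scaled CPM; log2 ratios used a prior count of 0.5.

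Legs are paired because the labels give both to 1 animal; same-rat deviations correlated at 0.243 on average in the VDR-OE and -0.105 in the VDR-KD arm. No 2 muscles of a group agreed within sampling noise (the smallest chi-square over its degrees of freedom was 30.2), so each was counted as its own sample. Symbols came from 1998 identifiers paired in a supplementary table. The same table's test columns, the study's own comparison, were not used. The genes named besides the chains were Vdr, the genes most like the chains and, in each group of partners, the 3 with the smallest P in the VDR-OE arm; Nid2, Itga2, Itga11, Col1a1 and the marker genes were named in addition after their values were seen. The members and lists were chosen with earlier results of these data known. The scripts were tested on simulated data.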

Additional observations from a re-analysis of the deposited data

Results flagged for a closer look

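In 50 groups of 7 values (levels, shares and within-rat ratios of the 5 chains), 6 had a highest or lowest sample whose gap to the next exceeded 0.568 of the range; chance flags about 5 in 100 such groups, and groups of 1 chain are not independent. Rat 426 accounted for 3 of them in the VDR-KD legs, with 523.6 CPM of Col6a3 (others 125.7 to 292 CPM), 12.19 CPM of Col6a5 (others 0.172 to 2.13 CPM) and a Col6a5 share of 0.654% (others 0.0246% to 0.172%). Rat 420 accounted for 2, with a Col6a5 share of 0.181% in its VDR-OE control leg (others 0.0195% to 0.0610%) and a within-rat log2 ratio of Col6a5 of 1.08 in the VDR-OE arm (others 1.96 to 2.60). In the VDR-OE control legs rat 419 had 25.1 CPM of Col6a6 (others 7.118 to 12.98 CPM). What sets these legs apart was not tested.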

How the results depend on the processing

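In the VDR-OE arm 4 of 5 chains were called; without the replicate block and with all 28 samples in 1 fit 1 of 5 was, Col6a1 having log2 changes of 0.78 and 0.74, Col6a2 of 0.75 and 0.70 and Col6a3 of 0.77 and 0.66. Col6a6 passed by the likelihood ratio test (0.83, adjusted P = 0.0149) and DESeq2 (0.83, adjusted P = 0.00956). Leaving out each rat in turn gave 0 to 5 chains called, and log2 changes of 0.66 to 0.90 (Col6a1), 0.65 to 0.83 (Col6a2), 0.58 to 0.82 (Col6a3), 1.95 to 2.30 (Col6a5) and 0.64 to 1.01 (Col6a6). Scaling by RLE and other filters on low counts changed no call there.

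In the VDR-KD arm, leaving out the replicate block gave 0.045 for Col6a2, 0.093 for Col6a3 and 1.87 for Col6a5, none of them called, and 0.02 for Col6a5 in the difference between the arms. Leaving out each rat gave -0.10 to 0.24 (Col6a1), -0.15 to 0.14 (Col6a2) and -0.21 to 0.15 (Col6a3), with no chain called. Between the control legs, 1 chain was called by the likelihood ratio test (Col6a3, -0.84) and 3 by DESeq2 (Col6a1, -0.71; Col6a2, -0.66; Col6a3, -0.84); without 1 leg the values ran from -0.82 to -0.58, -0.81 to -0.54, -1.017 to -0.70, -1.53 to -0.56 and -0.87 to -0.36 for the 5 chains in order.

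The 4 pairs of chains called in the VDR-OE arm fell to 0 without any 1 rat, where 6 pairs cannot pass. Values that changed sign without a rat had these ranges: VDR-OE shares, Col6a1 -0.0149 to 1.22, Col6a2 -0.696 to 0.239 and Col6a6 -0.0543 to 0.483 percentage points; VDR-KD shares, Col6a3 -1.004 to 0.580 and Col6a6 -0.563 to 0.150 percentage points; VDR-OE pairs, Col6a1 minus Col6a6 -0.29 to 0.099 and Col6a2 minus Col6a6 -0.30 to 0.053; VDR-KD pairs, Col6a1 minus Col6a3 -0.0061 to 0.14, Col6a2 minus Col6a3 -0.079 to 0.063 and Col6a3 minus Col6a6 -0.036 to 0.48. Partners called in the VDR-OE arm numbered 22, 8 without the replicate block, 6 with all 28 samples in 1 fit, 25 by the likelihood ratio test and 0 to 24 without 1 rat; all but the block and the likelihood ratio test were added after seeing the data, as were the values without 1 rat for Vdr, the marker genes and the correlations. The cause of these moves was not tested. Shares per kilobase were not run, as no lengths of these genes were used. Over all genes, calls in the VDR-OE arm numbered 1037, against 2262 by the likelihood ratio test, 2767 by DESeq2, 229 with all 28 samples in 1 fit and 0 to 4768 without 1 rat; calls between the control legs numbered 4, 441 by the likelihood ratio test and 1028 by DESeq2. Depth limits Col6a5 most, with 3 reads in 1 control leg.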
